A study of Mus musculus with 23 samples.

Results

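The genes described here read higher with BMP4 than without it in mouse epiblast-like cells that have Wnt3, and did not in cells that lack it. They were chosen from the measured values by a rule with 3 conditions. On the scale of log2(signal + 16), BMP4 minus no added cytokine, averaged over 12, 24 and 36 h, had to reach 0.7 in Wnt3+/+ cells and stay under 0.3 in Wnt3-/- cells, and some array had to read above 200. Each gene was represented by its probe set of highest mean, and 20 genes whose symbols start with Wnt, Bmp, Fgf, Hox, Cdx, Tbx, Prdm or another listed prefix were set aside, among them Wnt5a, Wnt8a, Tbx6, Mesp1, Cdx2, Prdm1 and Prdm14. This left 92 of 18194 singly named genes. All values of the members that come from these 4 groups are therefore descriptions of the choice and carry no test.

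In the early mouse embryo BMP4 from the extraembryonic ectoderm acts on the epiblast, where Wnt3 is one of the genes that come on before gastrulation. WNT ligands bind Frizzled and LRP receptors, stabilise beta-catenin, and switch on genes through TCF and LEF factors, many of which feed back on the pathway. BMP ligands act separately through SMAD proteins and induce the Id genes. Both signals are needed for the primitive streak, for nascent mesoderm and for the founding of the germ line, so a gene that reads higher with BMP4 can depend on either branch.

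The study used epiblast-like cells derived from male C57BL/6 embryonic stem cells, with Wnt3 intact (Wnt3+/+, WT below) or absent (Wnt3-/-, KO below), and both genotypes carried BV, a membrane-targeted Venus reporter driven by Blimp1 regulatory elements. Aggregates were kept in serum replacement medium with leukemia inhibitory factor. They received no cytokine, BMP4 at 500 ng/ml, WNT3A at 50 ng/ml or, in KO alone, both. Each genotype, condition and time of 12, 24 or 36 h has 1 Affymetrix Mouse Genome 430 2.0 array, and each genotype has 1 more array at 0 h, 23 in all. There is no replicate at any time, and each genotype is represented by a single line, so that genotype and line cannot be told apart. The 3 times stand in for replicates in every comparison of means, and those p-values measure the spread over times within 1 series of cultures. In the slope tests time is itself the effect. Their p-values measure the departure of 21 arrays, the 12 of the rule among them, from lines with 1 shared curvature.

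Genotype and BMP4 were checked on the arrays by the signals of Wnt3 and Id1. Wnt3 read between 11.2 and 27.9 on the KO arrays and up to 146 with BMP4 in WT, although which exons were deleted was not given in the sources used here. In WT it read 10.4 at 0 h and 11.5 and 17.0 untreated at 12 and 24 h. It read 19.0 with BMP4 at 12 h and 25.6 with WNT3A at 36 h, so these WT arrays were not set apart from KO by Wnt3. The labels of 6 KO arrays conflict: 3 are titled WNT3A but carry a second name with both cytokines, and 3 are titled BMP4+WNT3A but carry a second name with WNT3A alone. At 24 h Id1, a direct BMP target, read 7591 on the array titled WNT3A and 256 on the one titled BMP4+WNT3A, which goes against the titles. Groups below keep the titles, and WNT3A is in every label of all 6 arrays. The Gapdh 3' to 5' ratio, a sign of RNA quality, ran from 1.09 to 1.71 on most arrays. It reached 4.03 on the 24 h array of WT with WNT3A, 2.68 on the 24 h array of untreated KO and 2.30 on the 36 h array of untreated WT. The summed signal of 10 epiblast markers lay between 37751 and 41419.7 in KO without cytokine, between 35583 and 39921 in KO with BMP4, between 28795 and 38668 in WT without cytokine and between 14905 and 29951 in WT with BMP4. Signals below are the deposited intensities on a linear scale whose floor is 1, given at 12, 24 and 36 h in that order, and the number of arrays limits their precision.

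**Figure D1:**
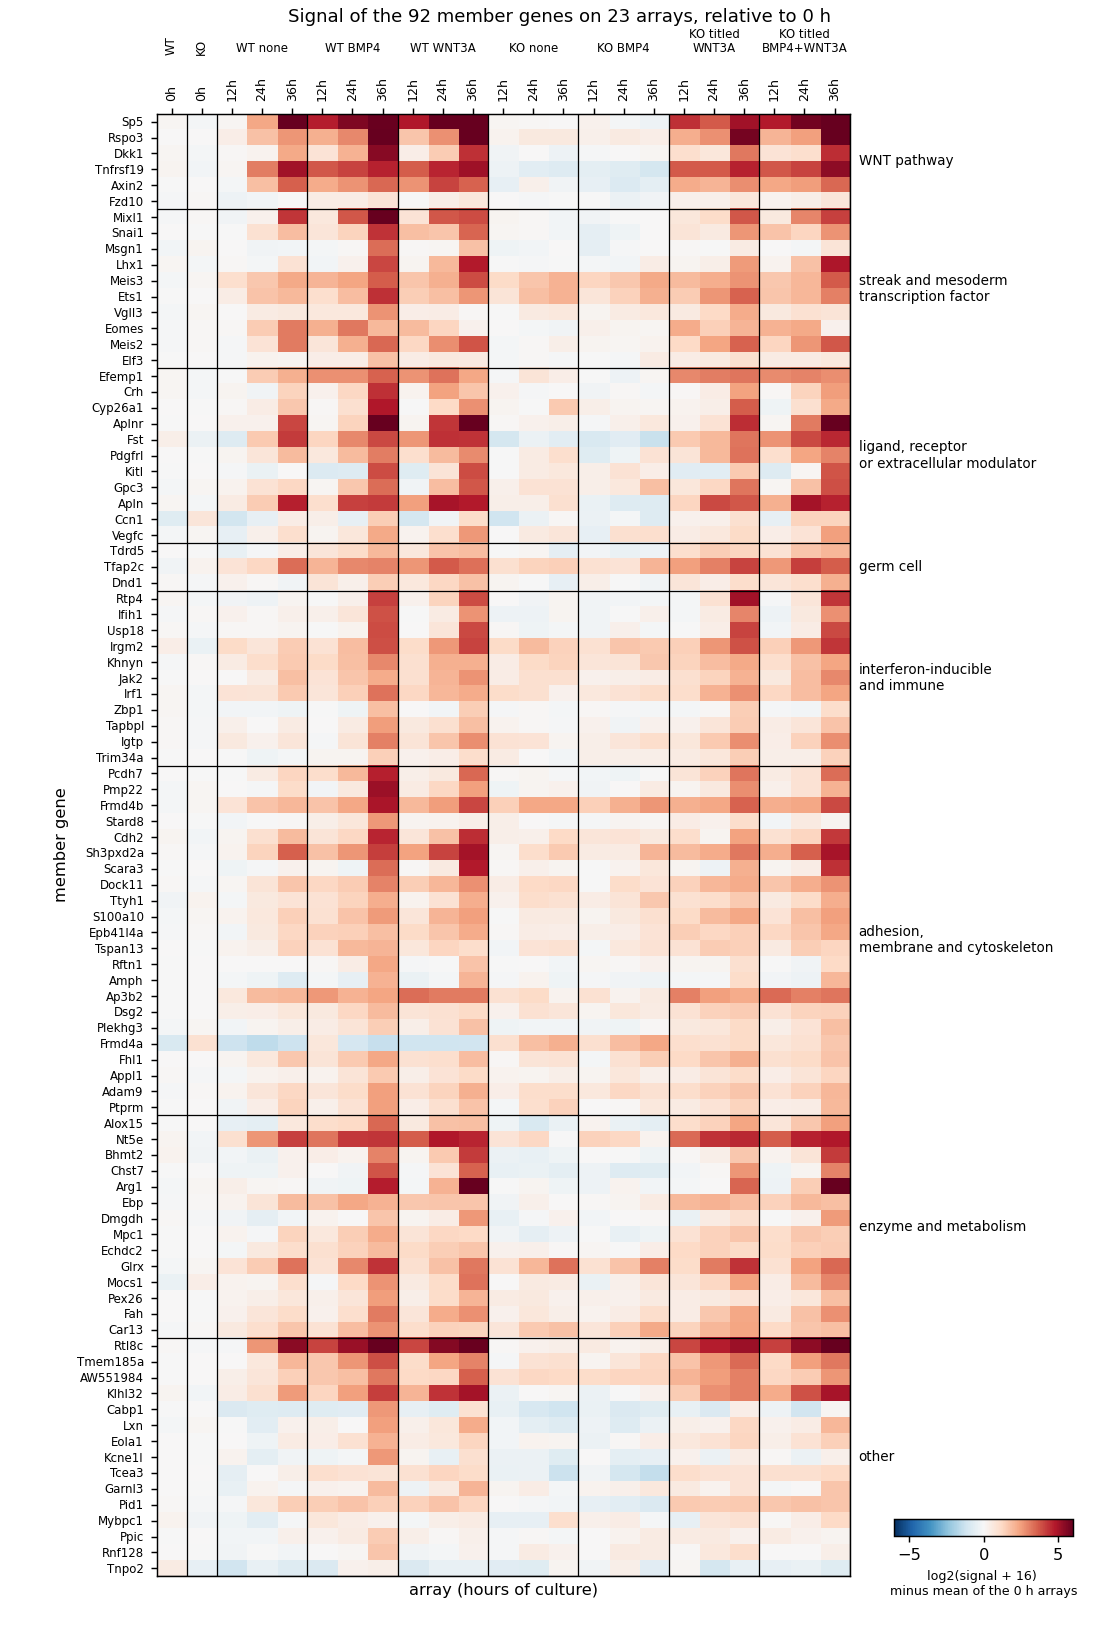
Rows are the 92 genes grouped by role, columns the 23 arrays by genotype, condition and hours, and the colour gives log2(signal + 16) minus the mean of the 0 h arrays (the scale ends at 6 in both directions). The 36 h columns of WT with BMP4 and of the 3 groups with WNT3A in the title are the deepest red, while the KO columns without cytokine and with BMP4 stay pale for most genes.

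Of all genes with some array above 200, 247 or 2.65% differed by at least 0.7 with BMP4 in WT, and in 135 of these the KO difference was 0.3 or more. Just inside the WT threshold lay Trim34a at 0.70, Ptprm at 0.71 and Tnpo2 at 0.71, and just outside it Egln3 at 0.70, Rai1 at 0.69 and Ripk3 at 0.69. Just inside the KO threshold lay Eomes at 0.29, Ppic at 0.29 and Nt5e at 0.28, and just outside it Pdgfa at 0.30, Crot at 0.31 and Parp12 at 0.31. The highest signals of Garnl3 at 208, Tnpo2 at 229 and Frmd4a at 236 were the lowest admitted, and Isg20 at 186, Zfpm1 at 186 and Mamdc2 at 182 were the highest refused. The contrast between the genotypes rests on these thresholds. Over all genes, 0 of 13256 (0.0%) passed adjusted p under 0.05 in limma for the difference between the WT and KO responses to BMP4. The smallest adjusted p was 0.0516, and 781 genes had an unadjusted p under 0.05. That fit includes the arrays of the rule, so nothing about the members is read from it.

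The WNT pathway itself supplied 6 of the 92 genes. Sp5 (probe set 1422914_at), a zinc finger factor that is a direct target of beta-catenin, read 27.5, 181 and 3541 at 12, 24 and 36 h in WT without cytokine, 1024, 1924 and 2385 with BMP4 and 1098, 3641 and 5914 with WNT3A. In KO it read 27.3, 26 and 24.8 without cytokine and 31.1, 20.1 and 15.9 with BMP4, but 815, 488 and 1269 on the arrays titled WNT3A and 1046, 2149.8 and 5833 on those titled BMP4+WNT3A. Every array with WNT3A in its labels thus stood far above all KO arrays without it, and WT cells left without cytokine reached the level of BMP4-treated cells by 36 h. Axin2, the scaffold of the beta-catenin destruction complex and a feedback inhibitor, read 61, 274 and 996 in WT without cytokine, 380, 526 and 904 with BMP4 and 523, 1370 and 949 with WNT3A. The KO values of Axin2 were 43.1, 31.3 and 40.8 with BMP4 and 407, 455 and 885 on the arrays titled BMP4+WNT3A. Tnfrsf19 (1448147_at), a TNF receptor family member known as a WNT target, read 47.8, 488 and 1978 in WT without cytokine, 787, 976 and 1468 with BMP4 and 734, 1409 and 2034 with WNT3A. On KO arrays it read 31.6, 22.6 and 19.3 without cytokine, 23.9, 19.6 and 12.6 with BMP4, 739, 755 and 1448 on those titled WNT3A and 787, 982 and 2419 on those titled BMP4+WNT3A. For all 3 genes the BMP4 difference in WT was largest at 12 h and below 0 at 36 h: 4.58, 3.30 and -0.57 for Sp5, 2.36, 0.90 and -0.14 for Axin2 and 3.65, 0.98 and -0.43 for Tnfrsf19.

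The secreted members of the pathway differed at 12 h as well and differed most at 36 h. Rspo3 (1455607_at), an R-spondin that keeps WNT receptors at the cell surface, read 13.3, 58.9 and 120.3 in WT without cytokine, 79.9, 146 and 1833 with BMP4 and 52.3, 129.8 and 3019 with WNT3A. In KO the values were 8.94, 16.3 and 16.9 without cytokine, 11, 16 and 13.2 with BMP4, 83.9, 131 and 1144 for the title WNT3A and 72.5, 104 and 2179.8 for BMP4+WNT3A. Unlike Sp5, Rspo3 in untreated WT cells stayed far below the treated ones at 36 h. Dkk1 (1420360_at), an inhibitor that binds the LRP co-receptors, read 44.9, 51.3 and 265 in WT without cytokine, 89.3, 236 and 2539 with BMP4 and 61, 155 and 1193 with WNT3A. On KO arrays Dkk1 read 35.3, 44.6 and 32.2 without cytokine, 39.9, 44 and 47.5 with BMP4, 101, 79.3 and 505 for the title WNT3A and 88.6, 103 and 1252 for BMP4+WNT3A. Its highest array was WT with BMP4 at 36 h. Fzd10, a Frizzled receptor, varied little, between 152 and 359.5 on all arrays from 12 h on.

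Promoters of the members are shown because one branch of the pathway acts through a short DNA word. RefSeq promoters of GRCm38.p6, from 250 bases before to 50 after a gene's start, were given for 66 of the 92 genes, and the TCF and LEF word CTTTGAT, or ATCAAAG on the other strand, was found in 4 of them, 6.06%, against 4.29% of 27025 genes. The 4 genes are Sp5, Tnfrsf19, the presomitic mesoderm factor Msgn1 and the cytoskeletal scaffold Frmd4b, and the bases before their starts are printed 5′ to 3′ on the gene's strand with the word in capitals.
Sp5, chr2:70474773-70474922, plus strand: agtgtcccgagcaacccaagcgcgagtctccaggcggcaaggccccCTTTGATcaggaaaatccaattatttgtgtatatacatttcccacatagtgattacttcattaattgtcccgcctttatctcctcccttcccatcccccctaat
Tnfrsf19, chr14:61037988-61038237, minus strand: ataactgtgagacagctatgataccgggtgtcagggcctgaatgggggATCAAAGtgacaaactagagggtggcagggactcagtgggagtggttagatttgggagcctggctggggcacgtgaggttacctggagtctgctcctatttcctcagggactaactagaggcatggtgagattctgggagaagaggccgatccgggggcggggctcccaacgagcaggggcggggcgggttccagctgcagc
Msgn1, chr12:11208949-11209198, minus strand: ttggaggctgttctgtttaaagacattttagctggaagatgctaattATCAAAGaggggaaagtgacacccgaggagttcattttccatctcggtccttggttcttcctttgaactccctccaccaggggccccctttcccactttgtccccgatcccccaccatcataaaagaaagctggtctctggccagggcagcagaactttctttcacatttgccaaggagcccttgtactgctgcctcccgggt
Frmd4b, chr6:97459287-97459436, minus strand: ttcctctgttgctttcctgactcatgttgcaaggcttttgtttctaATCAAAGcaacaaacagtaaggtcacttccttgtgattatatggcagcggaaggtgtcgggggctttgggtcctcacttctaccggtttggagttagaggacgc
The word starts 104 bases before the start of Sp5 and of Frmd4b, 202 before that of Tnfrsf19 and 203 before that of Msgn1. The T-box word AGGTGTGA, or TCACACCT, was found in 0 of the 66 windows and in 1.48% of all genes. A match is a description of letters and not of binding, and a window without them shows nothing about the factors.

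The 10 genes grouped as transcription factors of the streak and early mesoderm also take in the cofactor Vgll3 and the epithelial factor Elf3. Mixl1 had the largest difference among the 10. Mixl1 (1421505_at), a homeobox factor of the streak, read 8.88, 18.1 and 545 in WT without cytokine, 27.5, 359.5 and 1992 with BMP4 and 34.8, 362 and 413 with WNT3A. In KO it read 16, 13.7 and 9.45 without cytokine, 8.94, 12.1 and 13.1 with BMP4, 30.1, 45.3 and 355 for the title WNT3A and 27.1, 199 and 468 for BMP4+WNT3A. The array of WT with BMP4 at 36 h stood above all others. Eomes, a T-box factor of the streak and endoderm, ran the other way in time: 755, 1596 and 676 with BMP4 in WT against 171, 495 and 1509.7 without cytokine, so that its difference at 36 h was -1.14. With WNT3A it read 639, 416 and 194 in WT, 803, 458 and 709 for the KO title WNT3A and 749.6, 855 and 194 for BMP4+WNT3A, and 205, 179.8 and 177 in KO with BMP4. A second Eomes probe set that reached 2702 had a KO difference of 0.54, beyond the threshold of the rule.

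Lhx1, a LIM homeobox factor of the node and axial mesoderm, read 1.18, 6.96 and 300.2 with BMP4 in WT, 5.50, 58.1 and 508 with WNT3A, 4.44, 1.85 and 19.3 without cytokine, and 1.69, 1.26 and 9.99 in KO with BMP4. Snai1, the repressor of E-cadherin that drives the epithelial to mesenchymal transition, read 77.7, 126 and 1113 with BMP4 in WT and 39.1, 88 and 186 without cytokine. In KO with BMP4 Snai1 read 22.6, 31.1 and 41.6, below each of those arrays at the same time. Msgn1 was at or below 31.6 with BMP4 in WT until 24 h and at 455 at 36 h, against 137 with WNT3A. Ets1, a factor of mesoderm and vessels, read 855 at 36 h with BMP4 in WT, 471 in KO titled WNT3A and 165 in KO with BMP4. Meis2 and Meis3, TALE homeobox cofactors of Hox proteins, reached 815 and 1082 there. The cofactor Vgll3 and the epithelial factor Elf3 read 419 and 843 at 36 h with BMP4 in WT and at most 74.5 and 377 with WNT3A in WT.

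**Figure D2:**
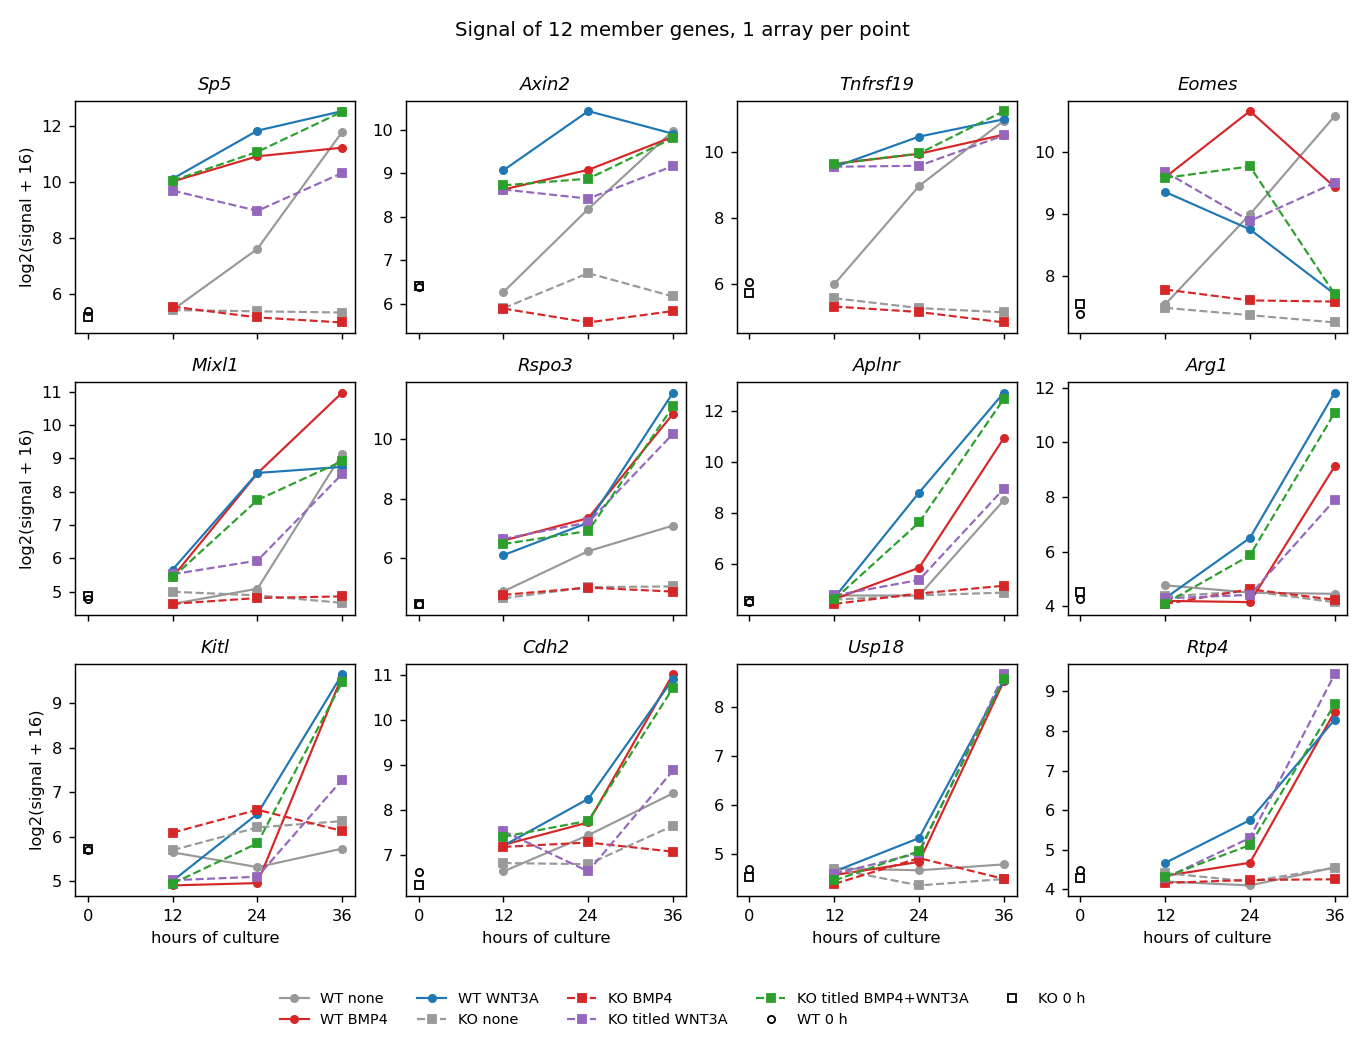
Each panel plots log2(signal + 16) of 1 gene against hours of culture, 1 array per point, with solid lines for WT and dashed lines for KO. In the panels of Sp5, Axin2 and Tnfrsf19 only the KO arrays without cytokine and with BMP4 stay low at all times, whereas Arg1, Usp18 and Rtp4 reach their highest values at 36 h.

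Ligands, receptors and extracellular modulators numbered 11. Aplnr, the apelin receptor of migrating mesoderm, read 11.4, 11.4 and 349.7 in WT without cytokine, 8.82, 42.2 and 1965 with BMP4 and 9.71, 434 and 6794 with WNT3A. On KO arrays it read 5.78, 12.9 and 19.7 with BMP4, 11.4, 25.8 and 484 for the title WNT3A and 8.63, 184 and 5753 for BMP4+WNT3A. At 36 h the KO array titled WNT3A thus read far below the one titled BMP4+WNT3A. Its ligand Apln, on the X chromosome, was earlier, at 128, 1218 and 1287 with BMP4 in WT and 37.8, 26.2 and 26.7 in KO. Follistatin (Fst), which binds activins and some BMPs, read 123, 695 and 4299.6 in WT without cytokine, 568, 1710.3 and 3717 with BMP4 and 111, 129.8 and 78.2 in KO with BMP4. Cyp26a1, which breaks down retinoic acid and is grouped here for that signal, read 1629 at 36 h with BMP4 in WT and 46.5 in KO. Kitl, the ligand of the KIT receptor carried by germ cells, read 14, 15.1 and 771 with BMP4 in WT against 34.3, 23.9 and 37.3 without cytokine, lower at 12 and 24 h and higher at 36 h. In KO Kitl read 52.3, 81.6 and 54.2 with BMP4 and 14.9, 41.9 and 699 on the arrays titled BMP4+WNT3A.

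Efemp1 (1427183_at), a fibulin of the extracellular matrix, stood high from 12 h on, with 471, 474 and 838 with BMP4 and 458, 695 and 355 with WNT3A in WT and 55.7, 197 and 311 without cytokine. Efemp1 in KO read 54.6, 111 and 81.6 without cytokine, 55.3, 44.3 and 62.7 with BMP4, 526, 609 and 666 for the title WNT3A and 508, 553 and 488 for BMP4+WNT3A. All 6 KO arrays with WNT3A in their labels read above all 6 without. Crh (1457984_at), corticotropin-releasing hormone, read 6.36, 1.42 and 35 in WT without cytokine, 7.89, 31.8 and 402 with BMP4 and 7.62, 91.8 and 47.8 with WNT3A. Its KO values were 7.78, 3.36 and 4.44 without cytokine, 1.59, 4.86 and 2.51 with BMP4, 4.96, 11.6 and 92.4 for the title WNT3A and 5.10, 34.3 and 97.7 for BMP4+WNT3A. Crh was near the floor on all KO arrays without WNT3A in their labels. The others of this group were the glypican Gpc3, the lymphatic growth factor Vegfc, the matricellular protein Ccn1 and Pdgfrl, whose signals at 36 h with BMP4 in WT ran from 214 for Vegfc to 1563 for Ccn1.

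The germ cell genes were 3. Tfap2c, a determinant of primordial germ cells, read 58.1, 83.3 and 416 in WT without cytokine, 155, 288 and 317 with BMP4 and 249, 526 and 396 with WNT3A. In KO it read 62.2, 58.9 and 155 with BMP4, 212, 322 and 689.8 for the title WNT3A and 234, 729 and 501 for BMP4+WNT3A. BMP4-treated WT cells thus read higher than untreated ones at 12 and 24 h but not at 36 h. Dnd1, an RNA-binding protein that keeps germ cells alive, read 617, 446 and 1003 in BMP4-treated WT cells and 452, 345 and 300.2 in BMP4-treated KO cells. Tdrd5, a tudor domain protein of the male germ line, read 322, 419 and 771 in the first of these groups and 163, 137 and 145 in the second.

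A group of 11 genes belongs to the interferon response and antigen presentation, and most of it came late. Rtp4 (1418580_at), an interferon-induced receptor transporter, read 2.38, 1.17 and 7.52 in WT without cytokine, 4.32, 9.51 and 343 with BMP4 and 9.45, 37.8 and 296 with WNT3A. KO arrays gave 5.31, 2.38 and 7.41 without cytokine, 1.96, 2.89 and 3.12 with BMP4, 3.53, 23.4 and 676 for the title WNT3A and 3.92, 18.8 and 393 for BMP4+WNT3A. The 36 h arrays of those last 2 groups and of treated WT cells stood apart from every other array. Ifih1 (1426276_at), the cytosolic sensor of double-stranded RNA, read 12.6, 9.25 and 12.8 in WT without cytokine, 13.6, 22.9 and 319.6 with BMP4 and 7.36, 16.9 and 139 with WNT3A. For KO the values of Ifih1 were 3.27, 3.32 and 10.9 without cytokine, 4.35, 7.62 and 12.8 with BMP4, 5.82, 17 and 164 for the title WNT3A and 3.10, 19.7 and 141 for BMP4+WNT3A. All arrays of Ifih1 above 50 were those of 36 h in these 4 groups. Usp18, which removes ISG15 and damps interferon signalling, reached 355, 362, 393 and 367 at 36 h in the same 4 groups. Its other arrays read 23.9 or less. The transcription factor Irf1, the kinase Jak2, the nucleic acid sensor Zbp1, the peptide editor Tapbpl, Trim34a, Khnyn and the GTPases Irgm2 and Igtp completed the group. Of the 11, 1 passed 0.7 at 12 h (Jak2) and 10 did at 36 h.

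The interferon-stimulated response element, read as GAAA, any 2 bases and GAAA again (TTTC in place of GAAA on the other strand), was in the promoters of 9 of the 66 genes with a window, 13.6%, against 3.99% of all genes, and in 4 of the 7 interferon and immune genes with a window: Ifih1, Igtp, Irgm2 and Trim34a. None of the 9 also holds the TCF and LEF word, but only 4.29% of all genes hold it, so nothing is read from this. The bases before the starts of the neighbouring GTPase genes Irgm2 and Igtp are shown with the element in capitals.
Irgm2, chr11:58214827-58214976, plus strand: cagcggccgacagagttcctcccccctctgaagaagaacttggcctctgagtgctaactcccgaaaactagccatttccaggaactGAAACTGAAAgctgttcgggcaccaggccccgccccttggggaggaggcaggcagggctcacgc
Igtp, chr11:58199406-58199555, plus strand: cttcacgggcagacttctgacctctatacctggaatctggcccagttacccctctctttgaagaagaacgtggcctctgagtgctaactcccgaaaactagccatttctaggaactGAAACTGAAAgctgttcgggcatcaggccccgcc
The element starts 64 bases before the start of Irgm2 and 34 before that of Igtp. Both windows share an identical run of 38 bases and lie 15421 bases apart. Whether the probe sets of these related genes share signal was not tested. Irgm2 read 45.6, 105 and 468 with BMP4 in WT and 47.8, 92.4 and 84.4 in KO, and Igtp read 191, 349.7 and 1722 and 263, 340.1 and 437.

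Adhesion, membrane and cytoskeletal proteins were the largest group, 22 genes. Cdh2, the N-cadherin of mesenchymal and neural cells, read 82.7, 156 and 313 in WT without cytokine, 133, 194 and 2048 with BMP4 and 131, 286 and 1898 with WNT3A. In KO it read 128, 138 and 118 with BMP4, 168, 82.7 and 452 for the title WNT3A and 152, 199 and 1652 for BMP4+WNT3A, so that at 36 h the last group read closer to WT with WNT3A than the one before it did. Pcdh7 (1449249_at), a protocadherin, read 7.73, 17.6 and 41.9 in WT without cytokine, 33.1, 77.2 and 592 with BMP4 and 14.8, 20.5 and 249 with WNT3A. Its KO values were 9.32, 10.7 and 6.87 without cytokine, 5.43, 4.26 and 7.41 with BMP4, 25.5, 46.9 and 208 for the title WNT3A and 17.8, 28.2 and 226 for BMP4+WNT3A. Here all KO arrays without WNT3A in their labels were at or below 10.7. Pmp22 (1417133_at), a membrane protein of myelin and epithelia, read 41.9, 38.9 and 104 in WT without cytokine, 35.3, 69.1 and 1965 with BMP4 and 63.6, 118 and 300.2 with WNT3A. KO arrays of Pmp22 read 32, 48.2 and 51.3 without cytokine, 33.1, 42.5 and 64 with BMP4, 47.2, 69.6 and 377 for the title WNT3A and 54.6, 86.2 and 226 for BMP4+WNT3A. WT with BMP4 at 36 h was 1965, above every other array of this gene. Frmd4b (1438169_a_at) read 154, 298 and 365 in WT without cytokine, 294, 458 and 2876 with BMP4 and 349.7, 534 and 1552 with WNT3A. For Frmd4b the KO arrays read 239, 461 and 461 without cytokine, 244, 410.1 and 580 with BMP4, 402, 458 and 1113 for the title WNT3A and 425, 458 and 1458 for BMP4+WNT3A. Its KO arrays without cytokine read above those of WT without cytokine at each time, unlike those of Sp5 or Pcdh7.

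Frmd4a, a related scaffold, had the opposite order of genotypes. It read 10.3 in WT and 79.3 in KO at 0 h, at most 8.82 on the WT arrays from 12 h on except 64 with BMP4 at 12 h, and between 65.3 and 236 on those of KO. A single WT array thus placed it among the members, and its highest arrays were those of KO.

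Enzymes and metabolic genes numbered 14. Alox15 (1420338_at), a lipoxygenase, read 32.9, 29.9 and 93.1 in WT without cytokine, 127, 143 and 739 with BMP4 and 87.4, 215 and 228 with WNT3A. In KO it read 41.9, 20.4 and 35.8 without cytokine, 64.4, 35.8 and 29.4 with BMP4, 129, 167 and 338 for the title WNT3A and 99.7, 197 and 365 for BMP4+WNT3A. Alox15 was higher with BMP4 than without it in WT at every time. Arg1, the arginase of the urea cycle, read 2.38, 1.80 and 541 with BMP4 and 3.63, 74.5 and 3591 with WNT3A in WT and at most 11.2 without cytokine. The KO arrays of Arg1 read 1, 8.63 and 2.89 with BMP4, 3.58, 5.39 and 221 for the title WNT3A and 1.16, 42.2 and 2149.8 for BMP4+WNT3A. Every array of Arg1 above 50 came from a group with BMP4 in WT or with WNT3A in its labels. Nt5e, the ectonucleotidase CD73, read 519, 1075 and 1113 with BMP4 in WT, 97, 355 and 989 without cytokine and 138, 120.3 and 51.6 in KO with BMP4. The others include the sterol isomerase Ebp, the sulfotransferase Chst7, the methyltransferase Bhmt2, Dmgdh of choline breakdown and the glutaredoxin Glrx.

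The remaining 15 genes have varied or uncertain roles. Rtl8c (1450080_at), an X-linked gene derived from a retrotransposon, read 27.7, 272 and 1911 in WT without cytokine, 744, 1629 and 2837 with BMP4 and 719, 2077 and 2759 with WNT3A. Rtl8c in KO read 32.4, 38.1 and 42.2 without cytokine, 50.6, 37.5 and 42.5 with BMP4, 709, 1176 and 1607 for the title WNT3A and 776, 1872 and 3236 for BMP4+WNT3A. As for Sp5, untreated WT cells came late and both KO groups without WNT3A stayed low. Tmem185a (1435228_at), an X-linked membrane protein, read 474, 739 and 1885 in WT without cytokine, 1448, 2978 and 6889 with BMP4 and 1031, 2487 and 3743 with WNT3A. For KO its values were 439.6, 873 and 910.2 without cytokine, 519, 792 and 1113 with BMP4, 1563, 2856 and 5043 for the title WNT3A and 1075, 2592 and 4329.6 for BMP4+WNT3A. At each time every array with a cytokine in WT, and every KO array with WNT3A in its labels, read above the KO arrays without it. Of the 92 genes 12 lie on the X chromosome, 13.0%, against 4.44% of the 135 genes with a KO difference of 0.3 or more and 3.23% of 9299 genes with some array above 200 and a known chromosome. The 12 are Rtl8c, Tmem185a, Ebp, Chst7, Stard8, Dock11, Eola1, Kcne1l, Gpc3, Apln, Fhl1 and Rnf128. This share was not tested.

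The 92 genes fall into early and late ones. With BMP4 in WT, 36 of them passed 0.7 at 12 h, 47 at 24 h and 72 at 36 h, where the backgrounds over all genes with some array above 200 were 2.42%, 2.5% and 5.49%. These counts describe the choice. Past 0.7 at both 12 and 36 h were 18 genes, among them Rspo3, Mixl1, Dkk1, Efemp1, Snai1 and Fzd10, past it at 12 h and not at 36 h 18, among them Sp5, Axin2, Tnfrsf19, Eomes, Fst, Meis2 and Tfap2c, and past it at 36 h and not at 12 h 54. Apln and Tspan13 passed it at 24 h alone. All 6 WNT pathway genes passed at 12 h. In KO with BMP4, 2, 2 and 5 of the 92 passed 0.7 at 12, 24 and 36 h, against 0.773%, 2.26% and 4.01% of all genes.

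**Figure D3:**
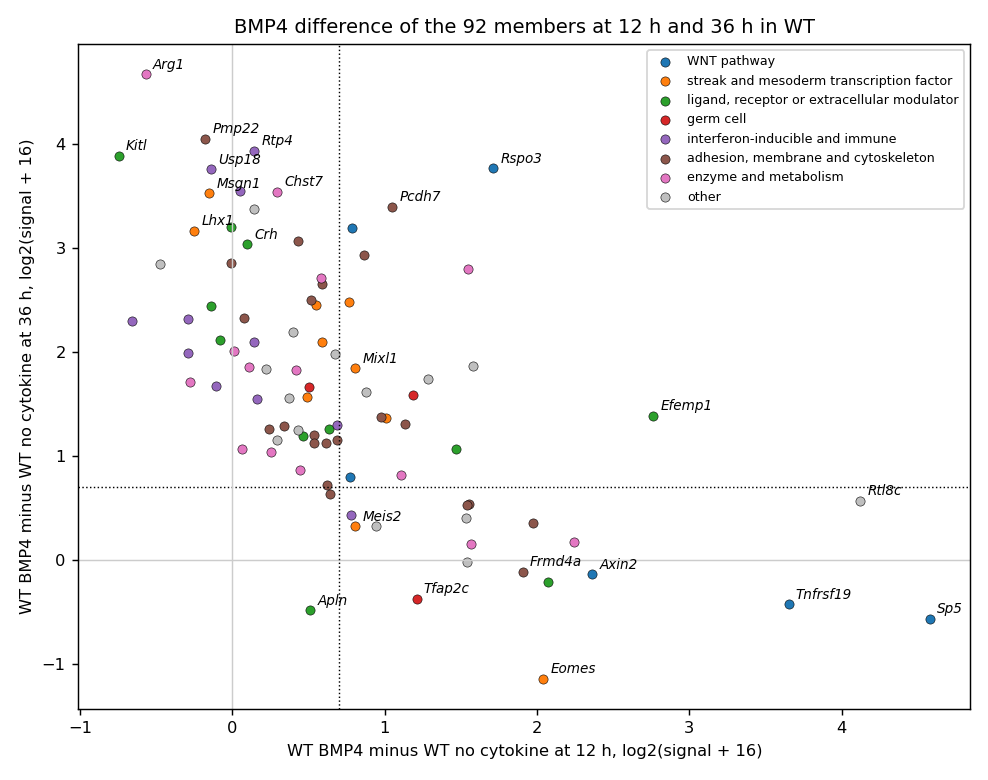
Each point is 1 of the 92 genes, coloured by role, with the difference of WT with BMP4 minus WT without cytokine at 12 h on the horizontal axis and at 36 h on the vertical axis, both in log2(signal + 16), and dotted lines at 0.7. Sp5 and Tnfrsf19 lie far right and below 0 at 36 h, while Arg1, Kitl, Rtp4 and Usp18 lie high and near or below 0 at 12 h.

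Untreated cells also differed by genotype, late in culture. WT without cytokine exceeded KO without cytokine by at least 0.7 in 1 of the 92 genes at 12 h, 15 at 24 h and 41 at 36 h, against 2.53%, 1.7% and 4.9% of all genes. Between 12 and 36 h the signal went up by at least 0.7 in 56 of the 92 in WT without cytokine (10.2% of all genes) and in 21 in KO without cytokine (8.51%). With BMP4 it did so in 82 in WT (16.3%) and in 23 in KO (11.2%). In a bulk sample, fewer cells with a transcript and less of it in each cell cannot be told apart. At 0 h, before any of this, 38 of the 92 read 50 or less on both arrays and 25 above 200 on both. Signals of different probe sets are no measure of which transcript is more abundant. The highest then were those of Mybpc1 at 2006 in WT and 1489 in KO, S100a10 at 1607 and 1859, Tspan13 at 989 and 969, Eola1 at 689.8 and 685, and Ppic at 653 and 676. The lowest were those of Lhx1, Crh, Rtp4, Arg1 and Rspo3, at 6.87 or less on both. KO exceeded WT at 0 h by at least 0.7 in 3 of the 92 (Frmd4a, Ccn1 and Mocs1) and in 0.14% of all genes, and WT exceeded KO by as much in 2 (Tnpo2 and Irgm2) and in 0.118% of all genes.

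The 9 arrays of WT with WNT3A and of KO with WNT3A in the title took no part in the differences of the rule. Like the 0 h arrays, they entered it through the choice of the probe set with the highest mean and through the floor of 200, which 89 of the 92 genes passed on the 12 arrays of the 4 groups, and Bhmt2, Dmgdh and Garnl3 on others. Against the 0 h array of the same genotype, which is also outside the differences of the rule, 42 of the 92 genes stood at least 0.7 higher at 12 h in WT with WNT3A, 48 in KO titled WNT3A and 43 in KO titled BMP4+WNT3A, where all genes gave 7.68%, 8.23% and 8.03%. At 36 h the counts were 83, 84 and 79, against 22.5%, 18.1% and 23.3%. With 1 array on each side there is no test of these differences.

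The WNT3A groups can also be set against the untreated arrays, but the rule used these, so the following counts are a description of the choice and nothing is read from their size. At least 0.7 above WT without cytokine, averaged over the 3 times, stood 63 of the 92 in WT with WNT3A (3.67% of all genes). At least 0.7 above KO without cytokine stood 62 in KO titled WNT3A (4.44%) and 62 in KO titled BMP4+WNT3A (5.18%), and 55 did so in both (3.05%). In 44 of the 92 genes all 6 of these KO arrays read above all 3 KO arrays without cytokine, as in 6.85% of all genes. The highest of the 23 arrays was WT with BMP4 at 36 h for 47 genes (13.2% of all genes), one of the 9 arrays with WNT3A for 41 (36.2%), and a KO array without cytokine or with BMP4 for 1, Frmd4a (31.5%).

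The 3 groups with WNT3A, which differ in BMP4, in genotype or in both, were compared with limma on means over the 3 times. Between KO titled WNT3A and KO titled BMP4+WNT3A, 0 of the 92 genes passed adjusted p under 0.05 in either direction, where 0.196% of 13256 genes were called higher and 0.143% lower, and 4 and 3 members had an unadjusted p under 0.05. The members' differences ran from -1.87 to 0.77 with a median of -0.09 and a median standard error of 0.37 (n = 3 times per group), and 79 of the 92 lay within 0.7 of 0. The smallest adjusted p was that of Sh3pxd2a, a scaffold of podosomes, at -1.09 ± 0.33 (adjusted p = 0.294). Of 11 measured genes of the BMP-SMAD response, none of them a member, 7 were called higher in the same comparison, with a median of 1.67. The standard errors come from a fit of 21 arrays, the 12 of the rule among them. In the fit of only the 9 arrays not used by the rule, 7 members were higher and 15 lower at an unadjusted p under 0.05. Here and below, the share of all genes at an unadjusted p was not counted, so nothing particular to the members is read from such counts. With the standard errors of the main fit a missed threshold does not show that the members read alike.

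Between KO titled WNT3A and WT with WNT3A, 1 member was called, Frmd4a, higher in KO by 2.20 ± 0.42 (adjusted p = 0.0232, limma, n = 3 times per group), against 0.279% of all genes higher and 0.264% lower. The call was lost without the 24 h arrays (adjusted p = 0.834), without the 36 h arrays (0.0788), with an offset of 64 (0.0569) and when the 3 arrays with the highest Gapdh ratio were left out (0.173, a fit added after the data were seen), and adjusted p over all settings ran from 0.00193 to 0.834. The members' differences ran from -2.37 to 2.20, with 73 of the 92 within 0.7 of 0, and 7 and 5 had an unadjusted p under 0.05 in the higher and lower direction. In the fit of 9 arrays these counts were 12 and 25. Sh3pxd2a read -1.38 ± 0.33 (adjusted p = 0.0762), Sp5 -1.86 ± 0.85 and Fst -1.57 ± 0.63, none of them called. Of the BMP-SMAD genes 8 of 11 were called higher. By the titles these groups differ in genotype, and by the second name of the KO arrays in BMP4 as well. Genotype and BMP4 cannot be told apart in this comparison. Between KO titled BMP4+WNT3A and WT with WNT3A, 0 members were called, against 0.00754% of all genes in each direction, 1 had an unadjusted p under 0.05 (Frmd4a, 2.19 ± 0.42, adjusted p = 0.125), 90 lay within 0.7 of 0, and 0 of 11 BMP-SMAD genes were called or had an unadjusted p under 0.05. In the fit of 9 arrays 3 members were higher and 4 lower at an unadjusted p under 0.05. By the titles this comparison mixes genotype with BMP4, and by the second name of the KO arrays both groups had WNT3A alone and differ in genotype. Id1 read 186, 256 and 1323 in KO titled BMP4+WNT3A and 189, 350 and 2077 in WT with WNT3A.

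**Figure D4:**
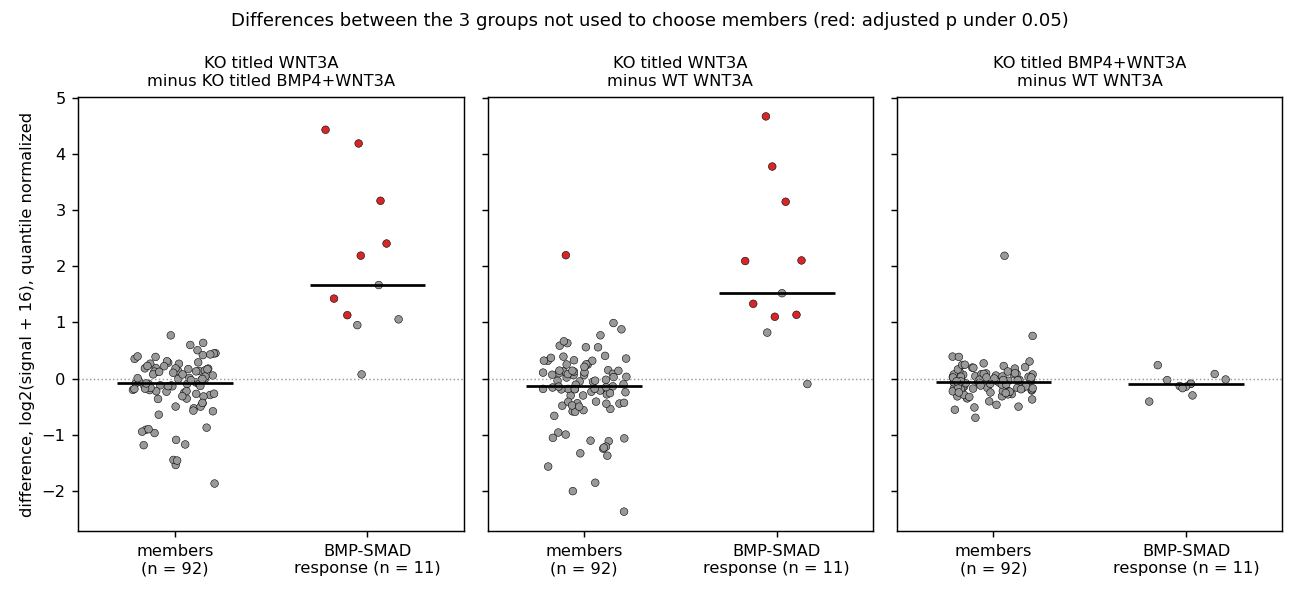
Each panel shows 1 comparison between groups that the rule did not use, with the difference in quantile normalized log2(signal + 16) of each of the 92 members on the left and of 11 BMP-SMAD response genes on the right, bars at the medians and red points for adjusted p under 0.05. The members centre near 0 in all 3 panels, and the BMP-SMAD genes have medians of 1.67, 1.52 and -0.10.

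The members also changed over time within the groups with WNT3A. These changes were not tested against untreated cells, whose arrays the rule used. From 12 to 36 h, 56 of the 92 went up by at least 0.7 in untreated WT (10.2% of all genes). In WT with WNT3A 71 did (11.2%). The counts were 21 in untreated KO (8.51%), 63 in KO titled WNT3A (7.08%) and 73 in KO titled BMP4+WNT3A (11.8%). The slope of log2(signal + 16) per 12 h, which at 3 evenly spaced times is the 36 h minus 12 h difference divided by 2, was tested in limma. In WT with WNT3A 51 of the 92 genes rose at adjusted p under 0.05, against 5.66% of 13256 genes, in KO titled WNT3A 27, against 1.49%, and in KO titled BMP4+WNT3A 53, against 5.61%. Without Bhmt2, Dmgdh and Garnl3, which passed the floor of 200 through other arrays than those of the 4 groups, the counts were 48, 27 and 50. No member fell in any of the 3 groups, where 4.48%, 1.37% and 3.86% of all genes did, with 1, 1 and 2 members at an unadjusted p under 0.05. With array weights Eomes was called falling in KO titled BMP4+WNT3A (-0.99 ± 0.29, adjusted p = 0.0374). Altogether 62 genes rose in at least 1 group, against 7.23% of all genes, and 21 in all 3, against 0.943%. The median slope over the members was 0.78, 0.52 and 0.71, and over all genes -0.02, -0.01 and -0.01. A difference in slope was called for 0 members in each pair of groups. For KO titled WNT3A minus KO titled BMP4+WNT3A, 0.0% of all genes were called higher and 0.0604% lower, and 1 and 16 members had an unadjusted p under 0.05. For KO titled WNT3A minus WT with WNT3A the shares were 0.0% and 0.00754%, with 3 and 19 members at an unadjusted p under 0.05, and for KO titled BMP4+WNT3A minus WT with WNT3A 0.0% and 0.0%, with 0 and 0 members. The shares of all genes at an unadjusted p were not counted for slopes or their differences either.

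Aplnr had the largest slope in WT with WNT3A, 4.0 ± 0.38 per 12 h (adjusted p = 0.000134), with 2.05 ± 0.38 in KO titled WNT3A and 3.91 ± 0.38 in KO titled BMP4+WNT3A. Arg1 rose by 3.74 ± 0.48 in WT and 3.44 ± 0.48 in KO titled BMP4+WNT3A, and its slope of 1.77 ± 0.48 in KO titled WNT3A was not called (adjusted p = 0.0724). Rspo3 rose by 2.70 ± 0.40, 1.73 ± 0.40 and 2.26 ± 0.40 in the 3 groups in that order. Scara3, a scavenger receptor, rose by 2.28 ± 0.40 in WT, Kitl by 2.26 ± 0.39 and Lhx1 by 2.23 ± 0.24. In KO titled WNT3A the steepest among the called genes were Rtp4 at 2.53 ± 0.30 (adjusted p = 0.00231), Aplnr, Usp18 at 2.00 ± 0.36, Rspo3, Cyp26a1 at 1.67 ± 0.28 and Glrx at 1.56 ± 0.17. In KO titled BMP4+WNT3A the steepest called genes were Aplnr, Arg1, Rspo3, Lhx1 at 2.22 ± 0.24, Kitl at 2.17 ± 0.39 and Rtp4 at 2.09 ± 0.30. Eomes had slopes of -0.89 ± 0.30 in WT (adjusted p = 0.0859) and -0.99 ± 0.30 in KO titled BMP4+WNT3A (adjusted p = 0.0591), neither called without weights.

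By role, the interferon and immune genes rose in 7, 8 and 10 of 11 cases in WT with WNT3A, KO titled WNT3A and KO titled BMP4+WNT3A, and 7 rose in all 3. Of all genes 5.66%, 1.49% and 5.61% rose in the same order and 0.943% in all 3, so KO titled WNT3A had fewer calls throughout. Ligands and receptors rose in 7, 4 and 7 of 11, streak factors in 3, 4 and 4 of 10, WNT pathway genes in 4, 1 and 4 of 6, enzymes in 8, 6 and 9 of 14, adhesion and cytoskeletal genes in 15, 3 and 11 of 22, germ cell genes in 1, 0 and 2 of 3, and the others in 6, 1 and 6 of 15. Of the 54 genes that passed 0.7 with BMP4 at 36 h and not at 12 h, 41 rose in at least 1 group, as did 9 of the 18 that passed it at 12 h and not at 36 h. The share over all genes was 7.23%. These roles were assigned with the names known, and differences between them were not tested.

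**Figure D5:**
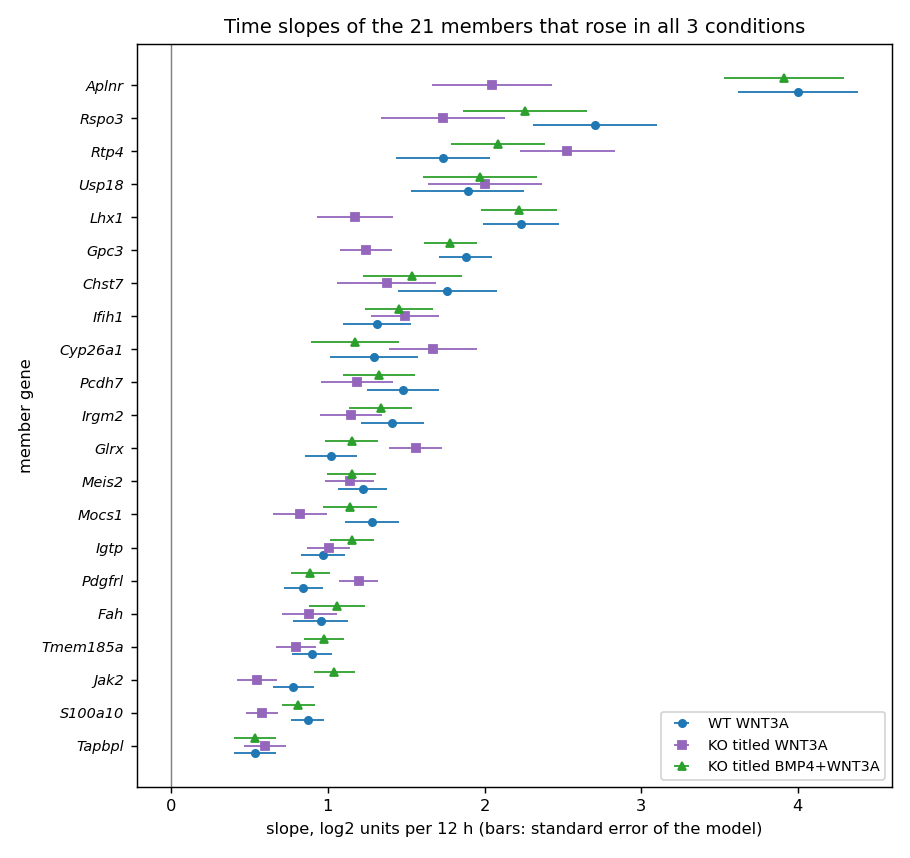
Points give the slope in log2 units per 12 h of the 21 genes that rose in all 3 groups under WNT3A, with bars of 1 standard error from the model. Aplnr is steepest in WT with WNT3A at 4.0, and the bars of the 3 groups overlap for Usp18, Ifih1, Igtp and Tapbpl.

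Other genes of the same pathways, from lists not limited to members, gave a frame for these slopes. Of all genes 5.66%, 1.49% and 5.61% rose in WT with WNT3A, KO titled WNT3A and KO titled BMP4+WNT3A, and 4.48%, 1.37% and 3.86% fell. Of 21 measured WNT feedback and target genes, 5 of them members, 9 rose and 1 fell in WT with WNT3A, 1 rose in KO titled WNT3A, and 9 rose in KO titled BMP4+WNT3A, and besides Sp5, Dkk1, Tnfrsf19 and Rspo3 the rising ones in WT were Sp8, Frzb, Cdx1, Cdx2 and Cdx4. Of 25 streak and nascent mesoderm genes, 7 of them members, 12, 7 and 12 rose in the 3 groups in that order and 0 fell. Of 12 genes of the Nodal pathway, Fst was the 1 that rose in WT with WNT3A and in KO titled BMP4+WNT3A, and 3, 1 and 1 fell. Of 16 genes of the epithelial to mesenchymal transition and motility, 3 of them members, 6, 3 and 5 rose and 2, 0 and 1 fell. Of 12 germline genes, 2 of them members, 2, 2 and 3 rose and 2, 2 and 2 fell. In the limma comparisons of means 0 WNT, 0 Nodal and 0 germline genes were called. At an unadjusted p under 0.05, WNT genes numbered 1, 5 and 0 in KO titled WNT3A against KO titled BMP4+WNT3A, KO titled WNT3A against WT with WNT3A and KO titled BMP4+WNT3A against WT with WNT3A, all lower. In the first of these comparisons 1 motility gene was called, Has2, a hyaluronan synthase that is no member, higher by 1.27. Of the streak list 1 gene, the endoderm factor Foxa2, was called lower in KO titled WNT3A than in either other group.

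Markers of other cell types differed between the same arrays. The summed signal of 9 trophoblast markers, which include Eomes, lay between 1094 and 3012 in WT with BMP4, 419 and 1698 in WT without cytokine, 293 and 418 in KO without cytokine, 438 and 638 in KO with BMP4, 604 and 872 in WT with WNT3A, 690.3 and 1519 in KO titled WNT3A and 791 and 1044 in KO titled BMP4+WNT3A. Of the 9, 2 read 50 or less on all WT arrays with BMP4 and 3 on all KO arrays with BMP4. The 9 also include Cdx2, which passed the thresholds of the rule and was set aside by symbol. Hand1, another of the 9, is on the streak and nascent mesoderm list too. For 9 endoderm markers the sums were 379 to 757 in WT with BMP4, 364 to 1403 in WT without cytokine, 315 to 420.5 in KO without cytokine, 343 to 481 in KO with BMP4, 766 to 1887 in WT with WNT3A, 326 to 469 in KO titled WNT3A and 766 to 2716 in KO titled BMP4+WNT3A. The 7 neural ectoderm markers summed to 1308 to 1456 in WT with BMP4, below the 2586 to 3112 of WT without cytokine and the 2088 to 2231 of KO with BMP4. In KO without cytokine they summed to 2404 to 3301, in WT with WNT3A to 2168 to 3561, in KO titled WNT3A to 1528 to 1804 and in KO titled BMP4+WNT3A to 1875 to 3151. For 8 naive pluripotency markers the ranges were 1072 to 1305 in WT with BMP4, 1152 to 2029 in WT without cytokine and 1969 to 2427 in KO with BMP4, and for 6 fibroblast markers 355 to 496, 332 to 639 and 471 to 556 in the same order. The part of these cells in the members' values was not tested. The 7 endothelial and blood markers summed to between 219 and 342 in every group from 12 h on.

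Some genes could be read more than once. Of 46 members with other probe sets, 20 had 1 or more above 200 on some array, 26 probe sets in all, of which 26 had a WT difference above 0 and 19 passed both thresholds of the rule. The other probe sets numbered 79, and some of those that stayed at or below 200 had a WT difference below 0, such as -0.41 for Mybpc1 and -0.34 for Ap3b2. These differences come from the arrays of the rule, so they describe the choice and carry no test. The list itself depended on the 36 h arrays: without them the rule gave 78 genes, of which 41 were among the 92, while without the 24 h arrays it gave 113 with 70 shared and without the 12 h arrays 120 with 73 shared. The 36 h set includes the untreated WT array with a Gapdh ratio of 2.30, and the 24 h set the untreated KO array with 2.68.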

How the data were processed

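The authors deposited linear intensity values for 45101 probe sets on each of 23 arrays. Their summarisation was not given in the sources used here. They move in steps of 0.01 on the log2 scale, and 2.93% stand at the lowest value of 1. Per the labels' protocols, total RNA was amplified as cDNA before biotin labelling. Array medians lay between 36.8 and 41.4. Of the probe sets 34958 name 1 gene, 932 several and 9211 none, by the platform annotation, and only the first kind was used.

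The rule was applied to log2(signal + 16) as deposited, and all 92 members were matched by gene identifier to RefSeq. For the tests, log2(signal + 16) was quantile normalized, each gene was represented by its probe set of highest mean, and 13256 genes above the array median on at least 3 arrays were kept, all 92 members among them. limma 3.58.1 under R 4.3.3 fitted 21 arrays with 7 conditions and time as an additive block (12 residual degrees of freedom), with a trend in the prior variance. Slopes came from a fit with 1 slope per condition and a shared curvature (6 residual degrees of freedom). Calls are Benjamini-Hochberg adjusted p under 0.05 over all genes. Differences on this scale understate changes of dim genes. The arrays at 0 h entered no test.

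The members, the gene lists and the choice of comparisons were made with earlier results of these data known. Genes named are the 15 members with the largest WT difference, members of the lists, the largest called changes, genes at the thresholds, and the 5 brightest and dimmest at 0 h. Other members are named by a role assigned once their names were known. On simulated data with 13256 genes, 86% of changes of 1 log2 unit and 97% of those of 2 were recovered for KO titled WNT3A against KO titled BMP4+WNT3A, with 2 of 185 calls false. For slopes in WT with WNT3A it was 89% and 97%, and 6 of 192 calls were false. The changed genes were drawn at random from all genes, so these shares do not give the recovery among the members. Alternatives were values as deposited, offsets of 1 and 64, other filters, averaging the probe sets of a gene, no trend, array weights, a fit of 9 arrays and leaving out each time. A fit that leaves out the 3 arrays with the highest Gapdh ratio was added after the data were seen. Promoter sequences are those of RefSeq for GRCm38.p6. Figures were drawn with matplotlib 3.10.9.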

Additional observations from a re-analysis of the deposited data

Results flagged for a closer look

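The 0 h arrays, which enter no comparison of means, held 2 members that read at least 0.7 higher in log2 before culture than on any untreated WT array later. On the log2(signal + 16) scale Tnpo2, a nuclear import receptor, stood 0.95 above the highest WT array without cytokine at 0 h in WT, and the calcium-binding protein Cabp1 stood 0.70 above it. Each rests on 1 array.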

How the results depend on the processing

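No paired analysis was possible because each genotype, condition and time has 1 array and the shared number of 2 arrays is the time, which is already a term of every fit. The count of members called between KO titled WNT3A and KO titled BMP4+WNT3A was 0, and 1 with array weights (Sh3pxd2a) or with the 9 arrays that the rule did not use (Apln), with a range of 0 to 1 over leave-one-out fits. Between KO titled WNT3A and WT with WNT3A the count of 1 became 0 with an offset of 64 and 0 when the 3 arrays with the highest Gapdh ratio were left out. It was 3 in the fit of 9 arrays (Frmd4a, Apln and Fst) and ran from 0 (24 h left out) to 3 (12 h left out: Frmd4a, Glrx and Sh3pxd2a). With 36 h left out the 1 call was AW551984 in place of Frmd4a. Between KO titled BMP4+WNT3A and WT with WNT3A the count of 0 became 1, Frmd4a, with array weights, in the fit of 9 arrays and without the 12 h arrays, a range of 0 to 1. Rising slopes in KO titled WNT3A went from 27 to 15 when no filter was applied, which raised the genes tested to 18194. The number of members was 43 with a WT threshold of 1.0, 173 with 0.5 and 37 with a KO threshold of 0, against 92, and ran from 78 to 120 when 1 time was left out. No member called in the main fit changed direction under any alternative, and where that fit called none, no reversal could be seen. Between KO titled WNT3A and KO titled BMP4+WNT3A the calls with array weights and with 9 arrays were lower. The call without the 36 h arrays, AW551984, was higher, and the members' median went from -0.09 to 0.02. Where a count moved with array weights, the offset or the fit of 9 arrays, the cause was not tested. Leaving out a time was not run for slopes, since 2 times leave no spread around a line. Dim members such as Arg1, Rtp4 and Crh lie near the floor on most arrays, and without detection calls low signal was not told apart from absence.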
